A study of Mus musculus with 12 samples.

Results

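The unfolded protein response and the chaperones of the endoplasmic reticulum (ER) were followed as 33 genes, chosen by symbol from a list of sensors, chaperones, disulfide isomerases, degradation factors and stress targets. All 33 were among the 25904 symbols of the deposited table, and all 33 passed the filter on low values that left 15246 genes for testing. Mid-colon RNA was sequenced from mice free of specific pathogens, 7 weeks of age, that drank clean water or a solution of 3% dextran sulfate sodium (DSS), which damages the lining of the colon, over 6 days. The groups were 3 libraries at day 0, 3 at day 2 of DSS, 3 at day 4 and 3 at day 6. No genotype, strain or sex is named in the labels, and no water-drinking group is named at days 2, 4 and 6, so DSS itself and the passing of days cannot be told apart. Whether the 3 libraries of a day came from separate animals is not stated, so p-values measure the spread between these libraries, which may be technical.

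Proteins that enter the ER are folded by chaperones such as BiP and GRP94, by lectin chaperones that hold N-glycosylated proteins, and by disulfide isomerases. When unfolded proteins build up, the sensors IRE1, PERK and ATF6 are activated and, through XBP1, ATF4 and the cleaved form of ATF6, raise the transcription of chaperones, of ER-associated degradation and, along the PERK branch, of amino acid and cell death genes. In the colon the pathway is best known from goblet cells, which secrete large amounts of mucin and are the main site of the IRE1 paralog encoded by Ern2, and from plasma cells, which need XBP1 to secrete antibody. Much of the regulation is outside a gene-level count: splicing of Xbp1, cleavage of ATF6 and translation of Atf4 were not measured here.

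Each library held between 30979977 and 40930613 reads in listed genes, so that 3 reads corresponded to less than 0.1 CPM (reads of a gene scaled to a common library total). Epcam, an epithelial adhesion molecule, lay between 1200 and 1680 CPM at day 0 and at 990, 523 and 1471 CPM in replicates 1, 2 and 3 of day 6, and no epithelial marker of a list of 12 was at 0 in every library. Markers of several cell types moved with the days. The summed CPM of 17 goblet cell markers ranged over 35512-80507 at day 0, 34433-43186 at day 2, 15739-16704 at day 4 and 3525-8870 at day 6. The sum of 12 plasma cell markers ranged over 4495-6376 at day 0, 1738-2941 at day 2, 558-909 at day 4 and 744-2857 at day 6. Neutrophil markers moved the other way, with sums of 6.82-11.5 CPM at day 0, 4.01-11.6 at day 2, 276-361 at day 4 and 335-1070 at day 6. The sum of 12 stem and proliferating crypt cell markers ranged over 616-680 at day 0, 328-420 at day 2 and 874-1175 at day 4. At day 6 it was 855, 399 and 753 in replicates 1, 2 and 3. The sum of 9 smooth muscle markers ranged over 8866-11565 at day 0, 12506-15478 at day 2, 4481-7237 at day 4 and 3314-8396 at day 6. The part of these markers in the results on ER genes was not tested, and in whole tissue fewer cells of a type cannot be told apart from less RNA per cell. Day 6 was uneven and its replicate 2 stood apart. Its libraries correlated at 0.914 to 0.978 with each other (Pearson r of log2 values across genes, which are not independent), lowest between replicates 2 and 3, while those of day 4 correlated at 0.983 to 0.99.

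Many ER chaperones and disulfide isomerases among the 33 genes were higher at day 4 than at day 2. The 5 lower genes included the IRE1 gene of goblet cells, Ern2. Of the 33 genes, 15 were higher and 5 were lower at day 4 against day 2 (limma, adjusted p under 0.05 over all genes tested), beside a background of 21% higher and 12.9% lower among the 15246 genes. The genes that rose were the BiP group (Hspa5, Hsp90b1, Hyou1, Dnajb11, Creld2, Manf), the lectin chaperones and isomerases Calr, Canx, Pdia3, Pdia4 and Pdia6, the degradation factor Derl2, and the ATF4 targets Trib3, Chac1 and Asns. The genes that fell were Ern2, Eif2ak3, Pdia5, Derl3 and Herpud1. The median log2 fold change was 0.46 over the 33 genes, with fold changes taken on log2(CPM + 1), and 0.073 over all genes tested. Of 160 other genes of the pathway tested, 22.5% were higher and 10.6% lower, near the shares of all genes. The median of the 33 genes was -0.24 at day 2 against day 0. At day 4 against day 0, 21.2% of the 33 were higher and 12.1% lower, beside 21.2% and 12% of all genes. After median-of-ratios scaling, which lines up the libraries on their typical gene, 11 of the 15 were still higher and all 5 were still lower, and no other member was called. The 4 no longer called were Derl2 (adjusted p = 0.0606), Pdia3 (0.0742), Pdia6 (0.0687) and Chac1 (0.0634), and the background was then 17.3% higher and 15.6% lower. Leaving out day 2 replicate 1, day 2 replicate 2 or day 4 replicate 3 left 2 of the lower genes called. The count of 15 higher was 10 without day 2 replicate 1, day 2 replicate 3, day 4 replicate 2 or day 4 replicate 3. In the plot of log2 levels by library, the 3 libraries of day 4 stand together, with the chaperone block above day 2 and Ern2, Pdia5, Derl3 and Herpud1 below it.

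**Figure D1:**
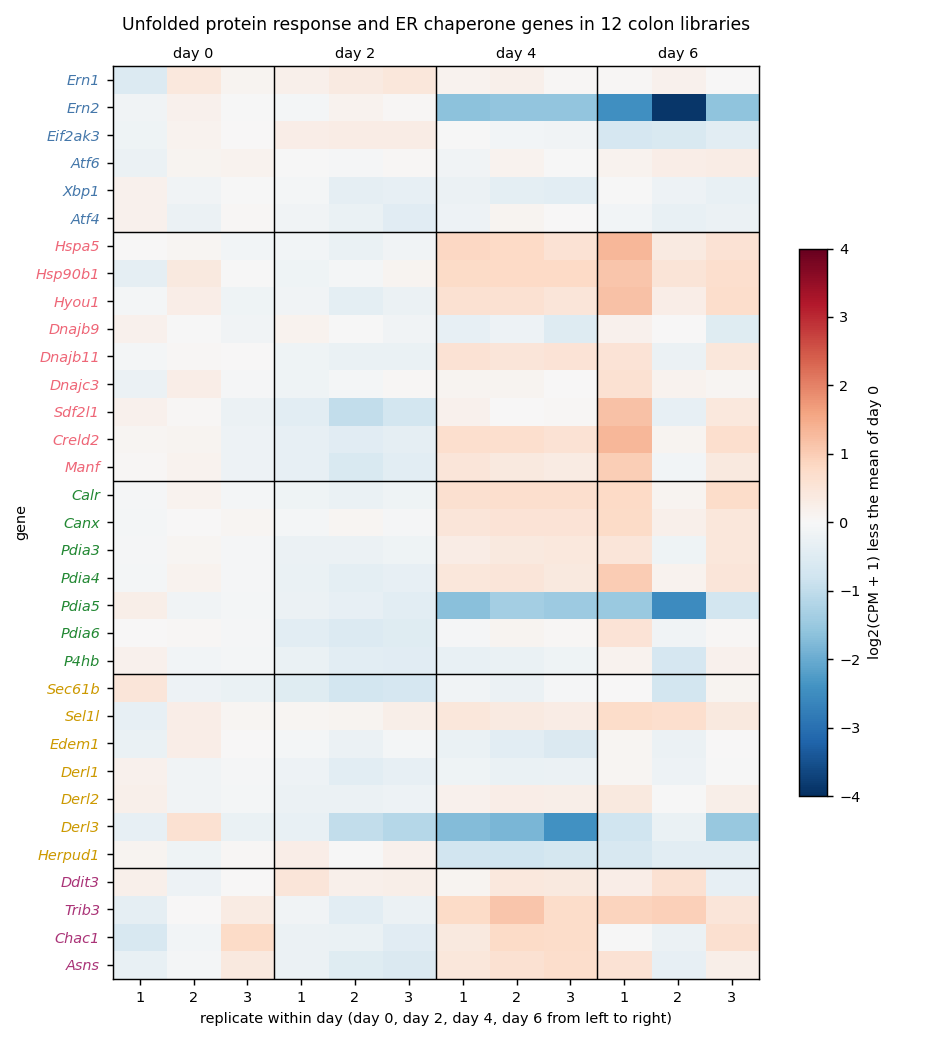
Each cell gives log2(CPM + 1) in 1 library less the mean of the 3 libraries of day 0, for the 33 genes in rows ordered and coloured by role and the 12 libraries in columns, on a colour scale that runs past the extremes of -3.89 and 1.34. Ern2, Pdia5 and Derl3 are blue at day 4, the chaperones from Hspa5 to Canx are mostly red at days 4 and 6, and day 6 replicate 1 is redder than day 6 replicate 2 for most genes.

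Stress elements in promoters are a known feature of this pathway, so the matches found in these genes are shown before the values. The RefSeq promoter table (build GRCm38.p6, 250 bases before to 50 after each start) held 28 of the 33 genes. The ER stress element (ERSE), bound in part by NF-Y and in part by cleaved ATF6 or XBP1, was searched as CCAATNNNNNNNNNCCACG on both strands. It was found in 8 of the 28 promoters, or 28.6%, and in 37 of all 27025 promoter symbols, or 0.137%. Hspa5, which encodes BiP, has 1 match, here in the 250 bases before its start at chr2:34771840-34772089 on the plus strand, with the match in capitals. One transcript of GENCODE release M21 starts further upstream, at chr2:34771970, so that the match lies within it by that annotation.
Hspa5: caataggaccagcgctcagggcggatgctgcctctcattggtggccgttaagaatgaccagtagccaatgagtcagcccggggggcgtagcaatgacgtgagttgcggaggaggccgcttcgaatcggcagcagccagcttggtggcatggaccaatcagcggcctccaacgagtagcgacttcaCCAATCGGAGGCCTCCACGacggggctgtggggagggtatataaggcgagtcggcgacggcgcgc
The other 7 promoters with an ERSE follow with 20 bases on either side, each on the strand that reads CCAAT first, the match in capitals. Hsp90b1, which encodes GRP94, has 2 matches, the first at chr10:86705513-86705571 (plus strand) and the second at chr10:86705618-86705676 (minus strand). The others lie at chr14:118937807-118937865 (plus strand) for Dnajc3, chr15:88819500-88819558 (minus strand) for Creld2, chr8:84847055-84847113 (plus strand) for Calr, chr11:50325780-50325838 (minus strand) for Canx, chr12:17266471-17266529 (plus strand) for Pdia6 and chr10:75893222-75893280 (minus strand) for Derl3.
Hsp90b1: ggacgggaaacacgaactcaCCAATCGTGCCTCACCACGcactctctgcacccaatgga
Hsp90b1: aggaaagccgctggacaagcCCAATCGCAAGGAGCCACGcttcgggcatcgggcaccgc
Dnajc3: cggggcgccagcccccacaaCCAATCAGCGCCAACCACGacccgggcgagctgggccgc
Creld2: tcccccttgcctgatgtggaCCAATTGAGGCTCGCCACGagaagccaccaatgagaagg
Calr: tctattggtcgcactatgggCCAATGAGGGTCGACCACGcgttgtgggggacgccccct
Canx: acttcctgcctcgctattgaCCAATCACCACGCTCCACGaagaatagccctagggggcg
Pdia6: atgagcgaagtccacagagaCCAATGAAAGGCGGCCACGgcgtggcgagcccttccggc
Derl3: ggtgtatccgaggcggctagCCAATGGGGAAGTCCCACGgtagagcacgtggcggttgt

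A shorter relative, ERSE-II, was searched as ATTGGNCCACG and found in 2 members, Dnajb11 and Herpud1, and in 12 of all promoter symbols, or 0.0444%. The core of the C/EBP-ATF response element (CARE), to which ATF4 binds with a C/EBP partner, was searched as TGATGNAA and found in Herpud1, Trib3, Chac1 and Asns, or 14.3% of the 28 members, and in 4.51% of all promoter symbols. It is short, and its background is correspondingly higher. No match overlapped another. These matches are shown with 9 bases on either side, first both ERSE-II matches and then the 4 CARE cores. The ERSE-II matches lie at chr16:22857843-22857871 (plus strand) for Dnajb11 and chr8:94386368-94386396 (plus strand) for Herpud1.
Dnajb11: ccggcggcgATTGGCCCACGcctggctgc
Herpud1: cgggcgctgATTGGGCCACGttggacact
The CARE cores lie at chr8:94386308-94386333 (minus strand) for Herpud1, chr2:152344030-152344055 (plus strand) for Trib3, chr2:119351040-119351065 (minus strand) for Chac1 and chr6:7693216-7693241 (minus strand) for Asns.
Herpud1: ggtgcgggcTGATGCAAcccgccgtg
Trib3: ccgcccggcTGATGTAAacctgagct
Chac1: tggcaggagTGATGCAAcggcaggga
Asns: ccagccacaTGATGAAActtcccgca

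**Figure D2:**
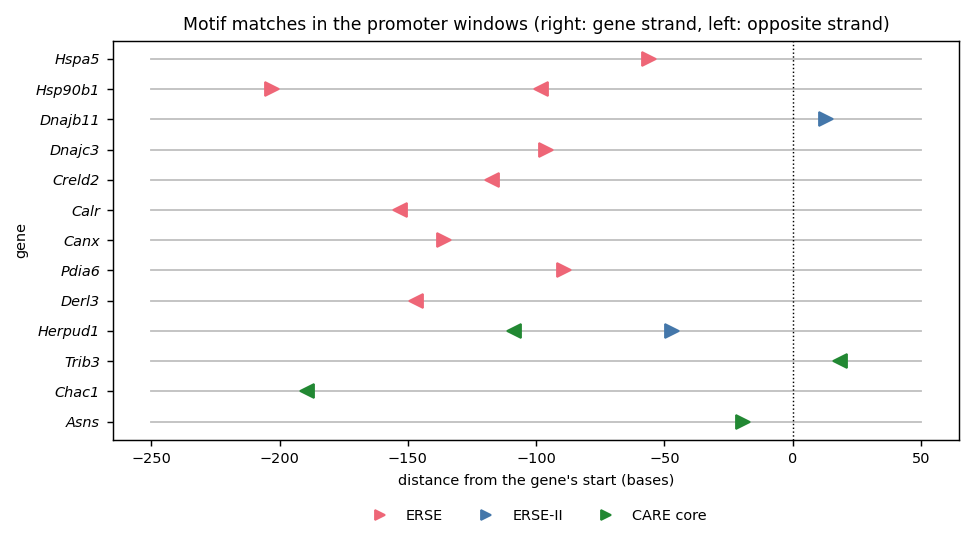
Position of each motif match in bases from the RefSeq start, for the 13 members with a match; grey lines span the window searched, from 250 bases before to 50 after the start, and the marker's direction gives the strand. The ERSE matches all lie before the start, the nearest being that of Hspa5 at -65 to -47, while ERSE-II in Dnajb11 and the CARE core in Trib3 lie just after it.

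The 10 members with ERSE or ERSE-II and the 18 with neither were set side by side at day 4 against day 2. Of the 10, 7 rose and 2 fell, with a median log2 fold change of 0.66. Of the 18, 6 rose and 2 fell, with a median of 0.25. Among all genes tested, 21% were higher and 12.9% lower. The 2 that fell among the 10 were Derl3, with an ERSE, and Herpud1, with an ERSE-II. Of the 4 members with a CARE core, Trib3, Chac1 and Asns rose and Herpud1 fell. A match is a description of the sequence, not a bound site or a cause, and the members were chosen with the pathway in mind, so no test was run on these counts.

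Among the HSP70 and HSP90 chaperones and their co-factors, 6 of 9 rose at day 4 against day 2, or 66.7%, and none fell. Among all genes tested, 21% were higher and 12.9% lower. Hspa5 had 769, 790 and 699 CPM at day 0, 701, 619 and 685 at day 2, 1344, 1313 and 1122 at day 4, and 1898, 970 and 1125 at day 6. Every library of days 4 and 6 was above every library of days 0 and 2. Its log2 fold change at day 4 against day 2 was 0.91 ± 0.22 (SE; limma adjusted p = 0.00822), a fold of 1.88, and the call held in all 24 alternatives. Hsp90b1, the HSP90 of the ER, had 428, 725 and 552 CPM at day 0, 490, 523 and 599 at day 2, 952, 975 and 971 at day 4, and 1193, 790 and 880 at day 6. Days 4 and 6 again lay above days 0 and 2 without overlap, although day 0 replicate 2 came close to the lowest library of day 6. Its log2 fold change at day 4 against day 2 was 0.85 ± 0.21 (SE; limma adjusted p = 0.00863). A part of its exons, 10.3%, overlaps those of 1810014B01Rik on the opposite strand, the largest such overlap among the 9 members that have one.

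Hyou1, a nucleotide exchange factor of BiP, averaged 281 ± 14.3 CPM at day 4 and 158 ± 15 at day 2 (SD, n = 3 each), with a log2 fold change of 0.83. Dnajb11, a co-chaperone of BiP, averaged 264 ± 8.41 CPM at day 4 and 155 ± 7.54 at day 2, with a log2 fold change of 0.77. Both were without overlap between the days. Creld2, an ER protein induced by stress in cell studies, had 65.4, 67.4 and 53.9 CPM at day 0, 49.4, 45.5 and 47.9 at day 2, 99.2, 100 and 92.4 at day 4, and 159, 67.3 and 99.4 at day 6. It was the chaperone gene with the largest fold change at day 4 against day 2, at 1.02 ± 0.24 on the log2 scale (SE; limma adjusted p = 0.00661), a fold of 2.02. At day 6 its libraries spread more than the days differed, and replicate 2 lay within the range of day 0. Manf, a secreted ER factor, averaged 208 ± 12 CPM at day 4 and 115 ± 10.7 at day 2, with a log2 fold change of 0.86.

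The remaining 3 of this group did not pass in any of the 5 pairs of days tested, which leave out day 6 against day 2. This holds for the limma fit of all libraries in CPM as deposited. Sdf2l1, a partner of the co-chaperone Dnajb11, averaged 65.6 ± 3.34 CPM at day 4 and 37.9 ± 7.8 at day 2, with a log2 fold change of 0.79 ± 0.30 (SE; limma adjusted p = 0.0595), and passed the F test over all days (adjusted p = 0.0419). Dnajb9, a co-chaperone that in cell studies holds IRE1 inactive, averaged 38.6 ± 4.04 CPM at day 4 and 49.3 ± 5.07 at day 2. Its log2 fold change was -0.35 ± 0.17 (SE; limma adjusted p = 0.147), and its direction thus differed from that of the chaperones around it. Quantile normalization and DESeq2 each called Dnajb9 lower at day 4 against day 2. At day 4 against day 0 Dnajb9 was called lower by both of these, by median-of-ratios scaling and by edgeR. Dnajc3, an HSP40 protein that also inhibits PERK, averaged 165 ± 7.32 CPM at day 4 and 150 ± 11.3 at day 2, with a log2 fold change of 0.14 ± 0.17 although its promoter holds an ERSE.

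**Figure D3:**
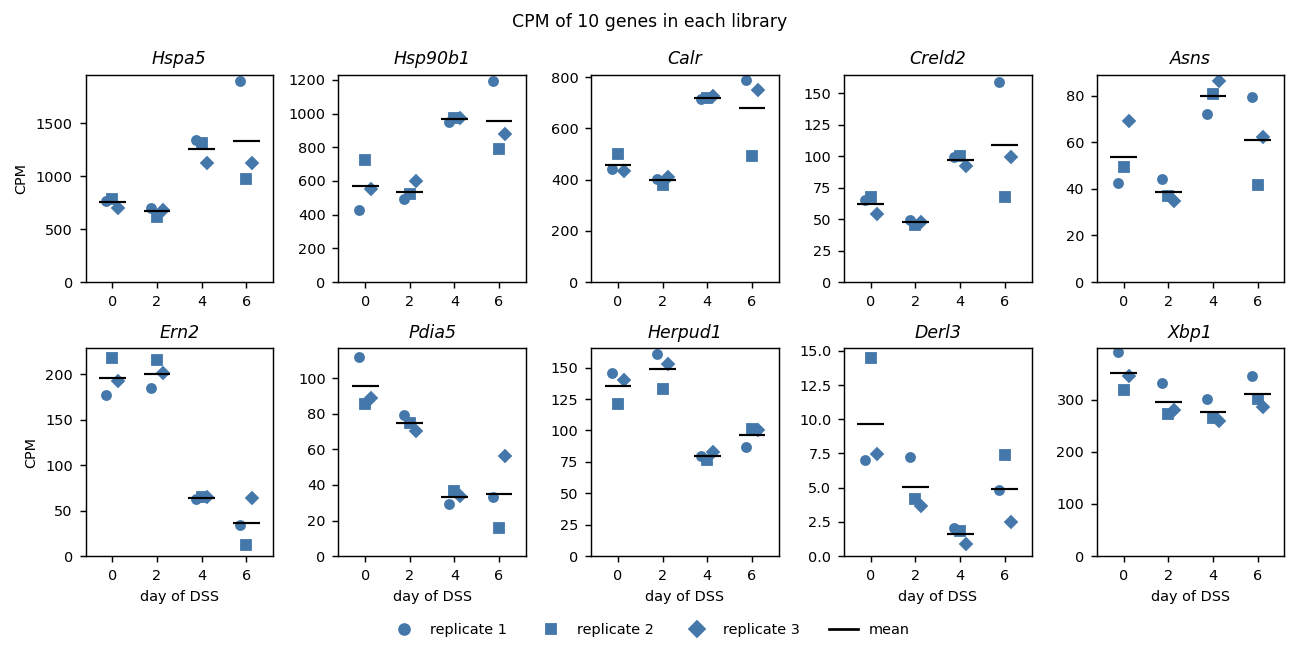
CPM in each library for 10 of the genes against the day of DSS, on linear axes that start at 0, with a symbol per replicate and a bar for the mean of the 3 libraries. Hspa5, Hsp90b1, Calr, Creld2 and Asns are higher at day 4 than at day 2 in every library, Ern2, Pdia5, Herpud1 and Derl3 are lower, and Xbp1 stays between 260 and 392 CPM.

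Of the 7 lectin chaperones and disulfide isomerases, 5 rose at day 4 against day 2 and 1 fell, or 71.4% and 14.3%, beside 21% and 12.9% of all genes. Calr, the lectin chaperone calreticulin, had 440, 499 and 432 CPM at day 0, 403, 380 and 409 at day 2, 715, 719 and 726 at day 4, and 790, 493 and 751 at day 6. Its libraries of day 4 lay close together and above all of those of days 0 and 2, with a log2 fold change of 0.86 ± 0.17 (SE; limma adjusted p = 0.00292). Canx, its membrane-bound counterpart calnexin, averaged 551 ± 11.9 CPM at day 4 and 378 ± 22.1 at day 2, with a log2 fold change of 0.54. Pdia3, the isomerase that works with these lectins, averaged 825 ± 39.2 CPM at day 4 and 554 ± 12.1 at day 2, with a log2 fold change of 0.57. Pdia4 averaged 241 ± 8.42 CPM at day 4 and 139 ± 6.17 at day 2, a log2 fold change of 0.78. Pdia6, an isomerase that limits IRE1 signalling in cell studies, averaged 401 ± 22.1 CPM at day 4 and 279 ± 11.7 at day 2, a log2 fold change of 0.52. The calls of Pdia3 and Pdia6 each held in 6 of the 12 fits without 1 library. The mean of Pdia6 at day 0 was 392 ± 14.2 CPM, close to that of day 4, and the day 4 difference from day 0 was not called.

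Pdia5 went the other way from Pdia3, Pdia4 and Pdia6, but other disulfide isomerases also fell. Of 18 other ER oxidation genes and disulfide isomerases tested, 4 were lower and 1 higher at day 4 against day 0. These were 22.2% and 5.56%, beside 12% and 21.2% of all genes. Txndc5 was among the lower ones (log2 fold change -1.26). Pdia5 had 112, 85.5 and 88.9 CPM at day 0, 79.5, 75 and 70.1 at day 2, 29.2, 36.7 and 33.8 at day 4, and 33.3, 15.7 and 56.5 at day 6. Each library of days 4 and 6 lay below each of days 0 and 2. Pdia5, which in human cells was found to promote the activation of ATF6, was lower at day 4 than at day 0 by a log2 fold change of -1.49 ± 0.33 (SE; limma adjusted p = 0.00558) and at day 6 than at day 0 by -1.58 ± 0.33 (adjusted p = 0.00374). Both calls held in all 24 alternatives. P4hb, the founding disulfide isomerase and the beta subunit of collagen prolyl 4-hydroxylase, passed in none of the 5 pairs tested, with 518 ± 26.2 CPM at day 4 and 471 ± 32.9 at day 2. At day 0, per kilobase of exon, P4hb (215 ± 24.1 CPM per kb), Pdia3 (204) and Hspa5 (178) had the highest levels of the 33 genes, and Trib3 (0.817) the lowest.

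Of the 7 genes of translocation and ER-associated degradation, 1 rose and 2 fell at day 4 against day 2. These were 14.3% and 28.6%, beside 21% and 12.9% of all genes, and so few genes cannot be told from that background. Herpud1, which organises the degradation complex around the ubiquitin ligase HRD1, had 146, 121 and 140 CPM at day 0, 161, 133 and 153 at day 2, 79.5, 76.4 and 82.9 at day 4, and 87, 101 and 100 at day 6. No library of days 4 or 6 reached those of the earlier days. Its log2 fold change of -0.89 ± 0.12 at day 4 against day 2 (SE; limma adjusted p = 0.000222) had the smallest adjusted p among the 33 genes in the 5 pairs of days tested, and the call held in all 24 alternatives. Derl3, a derlin of the degradation channel, had 7.02, 14.5 and 7.45 CPM at day 0, 7.24, 4.18 and 3.65 at day 2, 2.06, 1.84 and 0.884 at day 4, and 4.83, 7.41 and 2.51 at day 6. At day 4 against day 0 it was lower without overlap, by a log2 fold change of -2.0 ± 0.37 (SE; limma adjusted p = 0.00185), and the call held in all 24 alternatives. At day 6 it overlapped day 0 (log2 fold change -0.87 ± 0.37, adjusted p = 0.0876). Its highest library of day 6, replicate 2, also had the highest plasma cell marker sum of that day, 2857 CPM, against 744 and 796 in the other libraries. Jchain, the antibody joining chain, was at 258 CPM there, against 60.7 and 78.9. The same library also had the highest fibroblast, smooth muscle, and monocyte and macrophage sums of day 6, at 12053, 8396 and 2338 CPM. At day 0, replicates 2 and 3 had plasma cell sums of 6376 and 6362 CPM, while Derl3 was at 14.5 and 7.45 CPM. Whether Derl3 moved with plasma cells was not tested.

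Derl2 averaged 63.2 ± 2.5 CPM at day 4 and 45.8 ± 0.538 at day 2, with a log2 fold change of 0.46 ± 0.13 (SE; limma adjusted p = 0.0188). That call held in 7 of the 12 fits that left out 1 library. Derl1, the third derlin, had a log2 fold change of 0.10 and passed in none of the 5 pairs in the limma fit of all libraries in CPM as deposited. Sel1l, the adaptor of HRD1, passed at day 6 against day 0, with 198 ± 25.2 CPM at day 6 and 132 ± 27.7 at day 0 and a log2 fold change of 0.59 ± 0.16 (SE; limma adjusted p = 0.0141). Edem1, which removes mannose from misfolded glycoproteins, had 149 ± 15.9 CPM at day 4 and 182 ± 10.2 at day 2, and Sec61b, a subunit of the translocation channel, had 85.8 ± 4.73 and 60.9 ± 5.43. Neither passed in the 5 pairs tested in that limma fit of CPM as deposited.

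Of the 6 sensors and their transcription factors, none rose and 2 fell at day 4 against day 2. Among all genes tested, 21% were higher and 12.9% lower. Whether these 6 genes differ from that background or from the chaperones was not tested. Ern2 had 177, 218 and 192 CPM at day 0, 185, 216 and 201 at day 2, 62.6, 65 and 65.3 at day 4, and 34.6, 12.3 and 63.7 at day 6. The libraries of days 4 and 6 formed a low group that nowhere met the earlier days. Its log2 fold change was -1.62 ± 0.41 at day 4 against day 2 (SE; limma adjusted p = 0.0102) and -2.65 ± 0.41 at day 6 against day 0 (adjusted p = 0.000511), the largest change of any of the 33 genes in the 5 pairs tested, and both calls held in all 24 alternatives. Goblet cell markers moved with it: 11 of 16 tested markers were lower at day 4 against day 2 and all 16 at day 6 against day 0, none higher. At day 6 against day 0, 23.5% of all genes were higher and 12.4% lower. Spdef, the transcription factor of goblet cell maturation, had 188, 171 and 142 CPM at day 0, 189, 175 and 136 at day 2, 60.7, 57.4 and 51.3 at day 4, and 35.4, 9.76 and 54.6 at day 6. The library lowest in Ern2, day 6 replicate 2, was also lowest in Spdef and in Agr2, a mucin isomerase, at 73.7 CPM. Pdia5 was lowest in the same library. Of other goblet cell markers, Muc2 was lowest there too, at 1492 CPM, while Clca1 was at 318 CPM there and 287 in replicate 1. These lows are not particular to goblet cell genes. Replicate 2 was the lowest library of day 6 for 22 of the 33 genes and in the epithelial marker sum, at 5546 CPM.

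Eif2ak3, which encodes PERK, had 58.8, 73.1 and 67.1 CPM at day 0, 78.9, 81.2 and 82.3 at day 2, 65.6, 61.5 and 59.4 at day 4, and 41.5, 42.8 and 49.3 at day 6. Day 6 was lowest and day 2 highest, neither overlapping another day. The log2 fold change was -0.56 ± 0.11 at day 6 against day 0 (SE; limma adjusted p = 0.00282) and -0.37 ± 0.11 at day 4 against day 2 (adjusted p = 0.0254). Ern1, the ubiquitous IRE1 gene, averaged 46.7 to 57.3 CPM over the 4 days, Atf6 83.8 to 99.4, Xbp1 276 to 352 and Atf4 147 to 180. None of these 4 passed in any of the 5 pairs of days tested in CPM as deposited. Xbp1 had 276 ± 22.7 CPM at day 4 and 352 ± 37.6 at day 0, with a log2 fold change of -0.35 ± 0.14 (SE; limma adjusted p = 0.0781), and after median-of-ratios scaling it was called lower (-0.49, adjusted p = 0.029).

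Of the 4 PERK-ATF4 targets, 3 rose at day 4 against day 2, or 75%, and none fell, beside 21% higher and 12.9% lower among all genes. Against day 0, 1 of the 4, Trib3, was higher at day 4 and at day 6, or 25%. Among all genes 21.2% and 23.5% were higher in these comparisons. Asns, which makes asparagine, had 42.5, 49.3 and 68.9 CPM at day 0, 44.1, 36.8 and 34.6 at day 2, 72, 80.8 and 86.4 at day 4, and 79.3, 41.7 and 62.1 at day 6. Each library of day 4 was above each of days 0 and 2, while day 6 overlapped day 0. The difference of Asns at day 4 from day 0 was not called (limma adjusted p = 0.0683). Its log2 fold change at day 4 against day 2 was 1.04 ± 0.23 (SE; limma adjusted p = 0.00486), a fold of 2.05. Trib3, a pseudokinase that dampens this branch, had 1.08, 1.74 and 2.39 CPM at day 0, 1.43, 0.989 and 1.29 at day 2, 3.56, 4.8 and 3.46 at day 4, and 3.95, 4.15 and 2.73 at day 6. The gene rose at day 4 against day 2 by 1.14 ± 0.22 on the log2(CPM + 1) scale (SE; limma adjusted p = 0.0019), which understates the change of a gene this low. Its calls at day 4 against day 2 and against day 0 held in all 23 alternatives that tested it. Chac1, which breaks down glutathione, averaged 6.6 ± 1.06 CPM at day 4 and 2.93 ± 0.289 at day 2, with a log2 fold change of 0.94 ± 0.33 (SE; limma adjusted p = 0.0442). That call held in 4 of the 12 fits that left out 1 library. Ddit3, the cell death factor CHOP, had 14.6 ± 1.85 CPM at day 4 and 14.6 ± 1.63 at day 2, a log2 fold change of 0.00 ± 0.22, and passed in none of the 5 pairs tested.

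**Figure D4:**
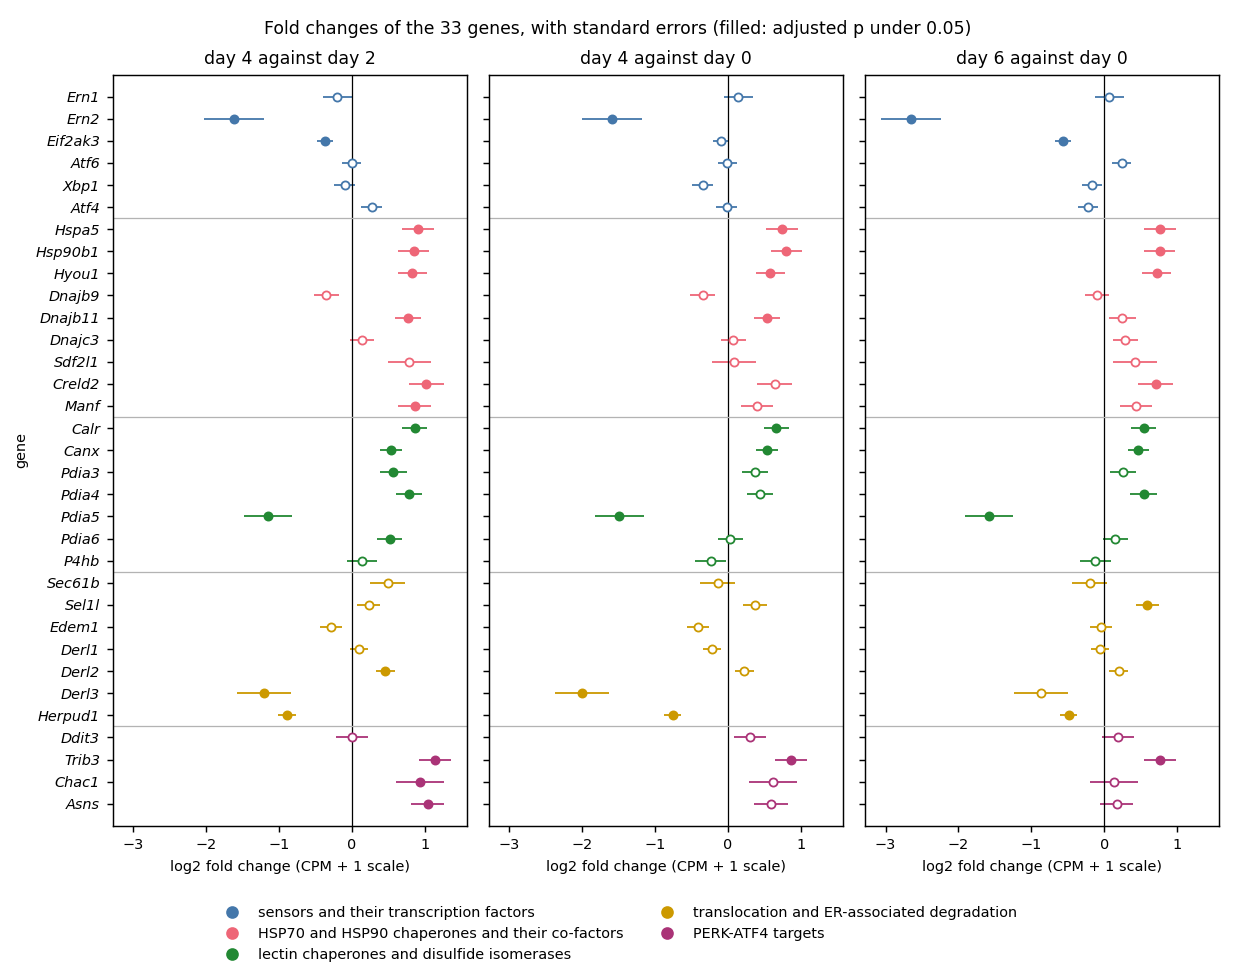
Log2 fold change of each gene on the log2(CPM + 1) scale with its standard error, for day 4 against day 2, day 4 against day 0 and day 6 against day 0; colours give the role and filled points an adjusted p under 0.05. Filled points number 15 on the right and 5 on the left for day 4 against day 2, 7 and 4 for day 4 against day 0, and 9 and 4 for day 6 against day 0; the last 2 panels share the libraries of day 0 and the first 2 those of day 4.

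Against day 0 fewer genes were called, and the counts depended on how libraries were scaled. At day 2 against day 0, none of the 33 genes was called by limma in either direction, with a background of 0.118% higher and 0.203% lower. By the p before adjustment, at 0.05, 1 was higher (Eif2ak3) and 4 were lower (Sdf2l1, Pdia6, Sec61b, Derl1). On recovered reads edgeR called 0 of the 33 and DESeq2 called 1 lower. The median log2 fold change of the 33 genes was -0.24, with 0.043 over all genes tested. Then 7 were higher and 4 lower at day 4 against day 0, or 21.2% and 12.1%, beside backgrounds of 21.2% and 12%. At day 6 against day 0, 9 were higher and 4 lower, with backgrounds of 23.5% and 12.4%. The shares of members called against day 0 were thus near those of all genes. The count of 7 was 4 without day 0 replicate 1, without day 4 replicate 1 or without day 4 replicate 3, 3 without day 4 replicate 2 and 11 without day 6 replicate 2. The count of 9 was 2 without day 0 replicate 1, 3 without day 0 replicate 3 and 0 without day 6 replicate 1. The comparisons share the libraries of day 0, so each is given by its own values. The higher genes at day 4 against day 0 were Hspa5 (log2 fold change 0.74), Hsp90b1 (0.80), Hyou1 (0.58), Dnajb11 (0.53), Calr (0.66), Canx (0.53) and Trib3 (0.87), and the lower ones Ern2 (-1.59), Pdia5 (-1.49), Derl3 (-2.0) and Herpud1 (-0.76). The higher genes at day 6 against day 0 were Hspa5 (0.76), Hsp90b1 (0.76), Hyou1 (0.72), Creld2 (0.71), Calr (0.54), Canx (0.47), Pdia4 (0.54), Sel1l (0.59) and Trib3 (0.77), and the lower ones Ern2 (-2.65), Eif2ak3 (-0.56), Pdia5 (-1.58) and Herpud1 (-0.49). Several of these rest on few libraries: in the 12 fits that left out 1 library, Hyou1 held in 4 and Dnajb11 in 3 at day 4 against day 0, and Creld2 in 5 and Pdia4 in 3 at day 6 against day 0.

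The fold changes of all genes tested had a median of 0.135 at day 4 and 0.137 at day 6 against day 0, so a gene of the typical change appeared higher in CPM. After median-of-ratios scaling the counts were 2 higher and 7 lower at day 4 against day 0, with backgrounds of 15.8% and 16%, and 1 higher and 5 lower at day 6 against day 0, with backgrounds of 17.3% and 16.6%. Higher calls made up 63.8% of all calls at day 4 against day 0 in CPM and 49.7% after this scaling, and 65.5% and 51.1% at day 6. Hsp90b1 (log2 fold change 0.66, adjusted p = 0.0344) and Trib3 (0.77, adjusted p = 0.013) remained higher at day 4 against day 0, and Trib3 alone at day 6 (0.65, adjusted p = 0.0281). All 4 genes lower in CPM remained lower at both days. Those added as lower were Xbp1, Dnajb9 and Edem1 at day 4 and Derl3 at day 6.

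**Figure D5:**
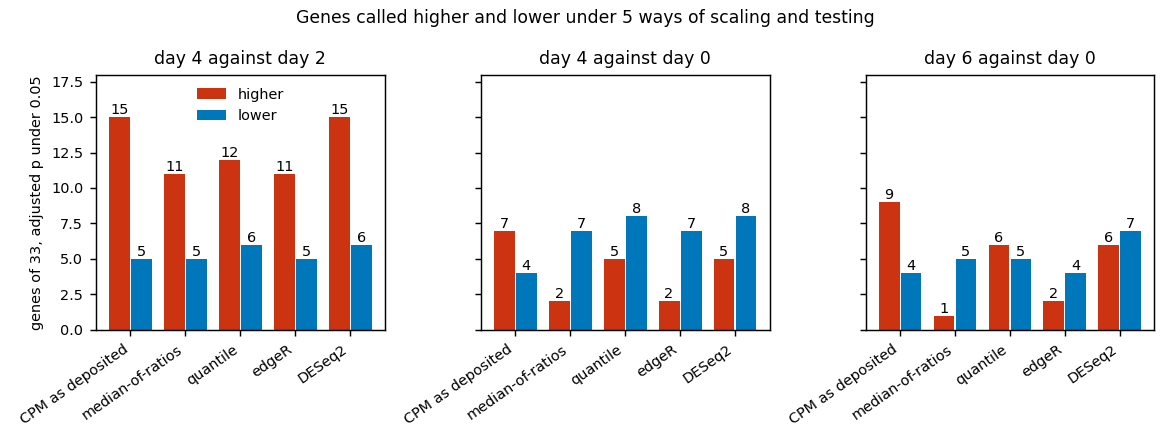
Number of the 33 genes called higher and lower at an adjusted p under 0.05 in 3 comparisons, with CPM as deposited, 2 other scalings and 2 count models on the reads recovered from the CPM values. At day 4 against day 2 higher calls outnumber lower ones in all 5 settings (15 and 5 in CPM), while at day 4 against day 0 the balance turns from 7 higher and 4 lower in CPM to 2 and 7 after median-of-ratios scaling.

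None of the 33 was called by limma at day 6 against day 4, where the background was 1.9% higher and 0.951% lower; by the p before adjustment, 2 were higher (Edem1, Derl3) and 2 lower (Ern2, Eif2ak3) at 0.05, edgeR called 0, and DESeq2 called 1 higher and 1 lower. Without day 6 replicate 3 limma called 1 higher and 2 lower, and without day 0 replicate 1 or day 0 replicate 2 it called 1 lower. The libraries of day 6 were uneven. The median coefficient of variation of the 33 genes was 13.8% at day 0, 7.55% at day 2, 5.11% at day 4 and 24% at day 6. Replicate 1 was the highest library of day 6 for 21 of the 33 genes and replicate 2 the lowest for 22. The summed CPM of the 33 genes ranged over 6403-6964 at day 0, 5578-5888 at day 2 and 7902-8176 at day 4, and at day 6 it was 10233 in replicate 1, 6439 in replicate 2 and 8169 in replicate 3. Replicate 2 also had the lowest epithelial marker sum of day 6, at 5546 CPM, with 10339 in replicate 1 and 16619 in replicate 3, and the highest fibroblast sum, at 12053 CPM, with 7999 and 5259 in the other libraries. Over all 4 days, 20 of the 33 genes passed the F test, beside 43% of all genes tested, and 13 passed it without day 2 replicate 2 or without day 2 replicate 3.

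A wider set of 164 other genes of ER folding, degradation and stress signalling was followed in 7 lists, and each gene named from it passed limma's test, at an adjusted p under 0.05, in the comparison for which its values are given. Of the 160 tested, 36 were higher and 17 lower at day 4 against day 2, or 22.5% and 10.6%, beside 21% and 12.9% of all genes. At day 4 against day 0, 29 were higher and 23 lower, or 18.1% and 14.4%, beside 21.2% and 12% of all genes. At day 6 against day 0, 39 were higher and 23 lower, or 24.4% and 14.4%, beside 23.5% and 12.4%. These shares were near those of all genes, and after median-of-ratios scaling lower calls outnumbered higher ones, with 17 higher and 32 lower at day 4 against day 0 and 21 higher and 30 lower at day 6 against day 0. The 29 were 19 without day 4 replicate 2, and the 39 were 24 without day 0 replicate 3 and 18 without day 6 replicate 1. The median log2 fold change was 0.20, 0.08 and 0.11 in these comparisons. At day 2 against day 0 limma called none, although 5 were higher and 30 lower by the p before adjustment; at day 6 against day 4 it called 1 higher and 2 lower. In the integrated stress response and ATF4 target list, 19 of 40 were higher and 7 lower at day 4 against day 2, or 47.5% and 17.5%, beside 21% and 12.9% of all genes, with a median log2 fold change of 0.53, against 0.073 over all genes. At day 4 against day 0, 14 of the 40 were higher and 5 lower, or 35% and 12.5%, beside 21.2% and 12% of all genes. At day 6 against day 0, 10 were higher and 7 lower, or 25% and 17.5%, beside 23.5% and 12.4%. Within this list Cebpb, a C/EBP factor that partners ATF4 and is also a gene of inflammation, averaged 165 ± 56.4 CPM at day 6 and 18.5 ± 0.713 at day 0, a log2 fold change of 3.02. Slc7a11, the cystine importer, averaged 26 ± 10.7 CPM at day 6 and 5.57 ± 3.27 at day 0, a log2 fold change of 2.09. Other genes of the list fell: Pycr1, a proline synthesis enzyme, averaged 5.24 ± 1.59 CPM at day 6 and 29.6 ± 2.71 at day 0, and Cbs, which condenses homocysteine with serine, 17.8 ± 15.2 and 77.3 ± 7.91.

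In the list of other UPR regulators, 6 of 20 were higher and 3 lower at day 4 against day 0, or 30% and 15%, beside 21.2% and 12% of all genes. Creb3l1, a membrane-bound factor of secretory cells, averaged 128 ± 10.4 CPM at day 4 and 380 ± 52.9 at day 0, and its relative Creb3l4 averaged 13.5 ± 1.21 and 71 ± 12.4, while Creb3l3 was higher at 5.78 ± 1.58 CPM at day 4 and 1.56 ± 0.252 at day 0. Creb3l1 also stands in the goblet cell list. Bcl2l11, a cell death gene, averaged 38.8 ± 14.8 CPM at day 6 and 16.4 ± 4.99 at day 0. Among other chaperones of the ER, 3 of 18 were higher and 4 lower at day 4 against day 0, or 16.7% and 22.2%. Serpinh1, the collagen chaperone, averaged 128 ± 29.8 CPM at day 0, 296 ± 73.8 at day 4 and 438 ± 158 at day 6, and the sum of 10 fibroblast markers ranged over 2012-2803 CPM at day 0, 3545-6034 at day 4 and 5259-12053 at day 6. Fkbp14 averaged 23.2 ± 10.1 CPM at day 6 and 9.61 ± 0.864 at day 0. Fkbp11, a prolyl isomerase that also stands in the plasma cell list, averaged 7.64 ± 1.02 CPM at day 4 and 18.3 ± 4.04 at day 0, and Cnpy2 averaged 44.2 ± 4.22 and 93.3 ± 29.5.

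Among the ER oxidation genes and other disulfide isomerases, 5 of 18 were higher and 4 lower at day 6 against day 0, or 27.8% and 22.2%, beside 23.5% and 12.4% of all genes. Agr2, which also stands in the goblet cell list, averaged 470 ± 473 CPM at day 6 and 1550 ± 201 at day 0 (limma adjusted p = 0.0157), and Txndc5 averaged 274 ± 70.7 and 687 ± 48.4. Ero1b, an oxidase of disulfide isomerases, averaged 19.1 ± 5.02 CPM at day 6 and 9.02 ± 2.23 at day 0, and Gpx8, an ER peroxidase, 22.4 ± 10.1 and 9.22 ± 1.45. In the ER-associated degradation list, 3 of 22 were higher and 5 lower at day 4 against day 0, or 13.6% and 22.7%, beside 21.2% and 12% of all genes. Vcp, the ATPase that pulls substrates from the membrane, averaged 381 ± 16.7 CPM at day 4 and 241 ± 45.3 at day 0, and its adaptor Nploc4 averaged 132 ± 1.21 and 80.5 ± 5.8. Erlec1, an ER lectin, averaged 27.4 ± 1.76 CPM at day 4 and 49.1 ± 2.57 at day 0, and Rnf5, a ubiquitin ligase, 52 ± 6.75 and 82.2 ± 7.27. In the translocation list 1 of 23 was higher and 2 lower at day 4 against day 0, or 4.35% and 8.7%, the lower ones being Sec11c, a signal peptidase subunit, with 76.2 ± 5.98 CPM at day 4 and 131 ± 31.4 at day 0, and Ssr4, with 107 ± 3.3 and 183 ± 63.8. Sec61a2 was the higher one, with 25.4 ± 1.21 CPM at day 4 and 17.8 ± 2.44 at day 0, and Sec63 passed at day 6 against day 0, with 143 ± 17.2 and 99 ± 19.4. In the N-glycosylation list 1 of 19 was higher at day 4 against day 0, or 5.26%, and none lower. It was Alg2, with 32.9 ± 2.33 CPM at day 4 and 22.9 ± 1.06 at day 0. At day 6 against day 0 Uggt2 passed too, with 9.81 ± 6.51 CPM at day 6 and 3.59 ± 0.344 at day 0.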

How the data were processed

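Mid-colon RNA was measured in 12 libraries, 3 at each of days 0, 2, 4 and 6, grouped by their time point label. Per the labels' protocols, poly(A) RNA was selected after TRIzol extraction and strand-marked libraries were read as paired ends; per the submitters' processing notes, HISAT2 2.2.1 (alignment, mm10) and featureCounts 2.0.1 (counting) were used. Overlapping genes may share reads, since neither the strand setting nor the annotation of the counting is given in the sources used here. The authors deposited CPM, and the columns summed to 992026 to 998040. In each library 100% of values lay within 0.1 of a whole number of reads, which gave the reads used in the count models.

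A gene was tested if 3 or more libraries reached 1 CPM. limma 3.58.1 in R 4.3.3 was fitted to log2(CPM + 1) over all libraries with a mean for each of the 4 days, trended and robust moderation, and Benjamini-Hochberg adjustment over the 15246 genes, at a threshold of 0.05. Fold changes are on that scale and understate changes of low genes. Alternatives were pseudocounts of 0.5 and 5, no filter, median-of-ratios and quantile scaling, a minimum mean of 5 CPM, other moderation, a replicate block, only the days compared, edgeR 4.0.16, DESeq2 1.42.0, each library left out, and, added after the data were seen, day 0 and day 6 replicates 2 left out together. The limma step was tested on simulated data. From each pathway list, up to 4 genes with the largest change among those past the threshold at day 4 or day 6 against day 0 were named; cell type lists were used for sums and counts. The 33 genes and all lists were chosen with earlier results of these data known. Coordinates are those of GENCODE release M21 and RefSeq, both on GRCm38. The floor of 3 reads covers counting error only, since reads were amplified and carried no molecular identifiers.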

Additional observations from a re-analysis of the deposited data

How the results depend on the processing

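At day 4 against day 2, the 15 higher calls became 10 to 17 over the alternatives run, which is within 1.5 times. The 5 lower calls stayed within 1.5 times under every alternative but 3 of the fits without 1 library. Of 44 calls of a gene in a pair of days, 20 held in all alternatives run, 22 in every fit without 1 library and 23 in every other alternative, and 0 reversed; none of these fits tests whether DSS or the day of harvest made the difference. The counts against day 0 changed with the scaling. At day 4 against day 0 the 7 higher and 4 lower became 2 and 7 with median-of-ratios scaling, 2 and 7 with edgeR, 8 lower with quantile normalization, 8 lower with DESeq2, 12 higher in a fit of only the days compared and 13 higher without day 0 and day 6 replicates 2. At day 6 against day 0 the 9 higher and 4 lower became 1 higher with median-of-ratios scaling, 2 higher with edgeR, 7 lower with DESeq2, and 0 higher and 2 lower in a fit of only the days compared. At day 2 against day 0, DESeq2 and the fit without both replicates 2 each called 1 lower. At day 6 against day 4, DESeq2 called 1 higher and 1 lower, and a pseudocount of 5 and quantile normalization each called 1 lower. The cause was not tested.

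Among the other pathway genes, the 29 higher at day 4 against day 0 became 16 with edgeR, 17 when scaled by median-of-ratios, 18 when quantile normalized and 45 without both replicates 2, and the 23 lower became 36 with DESeq2. The 39 higher at day 6 against day 0 became 22 with edgeR, 21 when scaled by median-of-ratios, 16 when quantile normalized and 8 in a fit of only the days compared, where the 23 lower became 12.

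Leaving out 1 library gave 3 to 11 higher at day 4 against day 0 and 0 to 13 higher at day 6 against day 0. It gave 10 to 17 higher and 2 to 5 lower at day 4 against day 2. At day 6 against day 4 it gave 0 to 1 higher and 0 to 2 lower, and the F test passed 13 to 22 genes. Of the other pathway genes, 19 to 38 were higher at day 4 against day 0 and 18 to 41 at day 6 against day 0. A fit that leaves a day with 2 libraries pools their spread with that of the other days. The lowest value of the members, 0.884 CPM of Derl3 at day 4, was above the floor of 3 reads. Whether depth limited the calls of low genes such as Derl3 and Trib3 was not tested.

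The replicate numbers were not treated as pairs in the main fit. Residuals of same-numbered libraries correlated at -0.212 to 0.636 (median 0.0384, over 0.1 in 7 of 18 pairs) and of differently numbered ones at -0.62 to 0.536 (median -0.018, over 0.1 in 9 of 36). With 3 libraries a day, these correlations cannot exclude pairing. With the replicate number as a block, the counts were 8 higher and 5 lower at day 4 against day 0, 9 and 5 at day 6 against day 0, and 16 and 5 at day 4 against day 2, and 19 genes passed the F test.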
